A study of Mus musculus with 4 samples.

Results

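The 10 genes described here encode enzymes that remove superoxide and peroxides, proteins that recharge those enzymes, and the NADPH source *Nnt*. They are *Sod1*, *Sod2*, *Cat*, *Gpx1*, *Gpx4*, *Prdx3*, *Prdx5*, *Txn2*, *Txnrd2* and *Nnt*, chosen by name from a table of 55401 genes. The table holds 11 rows with these names, because *Nnt* is listed under a pair of gene models. A row of each of the 10 genes passed the filter on low values, a mean of at least 1 TPM (a transcript's share of its library, corrected for transcript length and brought to a fixed total). The second *Nnt* model was listed at 0 in every library and was not tested.

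Superoxide leaks from the respiratory chain, and superoxide dismutases turn it into hydrogen peroxide, which is then reduced to water by catalase, glutathione peroxidases and peroxiredoxins. Peroxiredoxins of the mitochondrial matrix are recharged by thioredoxin 2 and thioredoxin reductase 2, and glutathione by glutathione reductase, and both routes draw on NADPH. Nicotinamide nucleotide transhydrogenase, the product of *Nnt*, uses the proton gradient of the inner membrane to make NADPH in the matrix. The heart, rich in mitochondria, depends heavily on these matrix enzymes.

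RNA of hearts from 4 mice aged 8 weeks was sequenced after capture of polyadenylated RNA, with 1 library per mouse. Of these mice, 2 were wild type and 2 were *Ctcf* heterozygous, and the comparison asks which heart genes differ in adult carriers. CTCF is a DNA-binding protein that shapes chromatin loops and domain boundaries, and the heterozygous mice carry the CTCF-R567W substitution, made by CRISPR/Cas9 editing in C57BL/6N mice, on 1 allele. The sources name no litter, sex or founder for these mice and no treatment other than the editing. Values are given for replicates 1 and 2 of each genotype in that order.

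A table of TPM gives neither sequencing depth nor the counting error of a value. Transcripts of the mitochondrial genome took 61.1% to 64.7% of TPM in wild-type and 62.6% to 68.6% in heterozygous hearts. Scaled TPM are TPM over a factor found for each library by median of ratios. The factors were 1.09 and 1.26 for wild-type and 0.818 and 0.903 for heterozygous libraries. Without that scaling the tested genes had a median log2 fold change of -0.35. With the genes of the mitochondrial genome removed and TPM rescaled instead, the median was -0.31. The source of that shift was not tested. Log2 fold changes below are on scaled TPM unless another scale is named, and their median over the tested genes was -0.0047. *Ctcf* itself stood at 6.12 and 6.02 scaled TPM in wild-type and 7.51 and 5.76 in heterozygous hearts, which does not show the allele. All 6 cardiomyocyte markers (*Myh6*, *Tnnt2*, *Actc1*, *Tnni3*, *Ryr2* and *Myl2*) were above 0 in every library.

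Of the 10 members, 3 are selenoproteins in the annotation used here, which read a TGA codon inside the frame as selenocysteine instead of stopping. These windows are shown because they separate the members by chemistry: *Gpx1*, *Gpx4* and *Txnrd2* hold such a codon, and the longest coding transcripts of the other 7 genes hold none. Each line gives the coding strand, 5′ to 3′, with the TGA codon in capitals, from mm10 at chr9:108339436-108339465, chr10:80054722-80054751 and chr16:18477757-18477777.
Gpx1: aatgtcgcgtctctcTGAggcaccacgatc
Gpx4: aacgtggcctcgcaaTGAggcaaaactgac
Txnrd2: actgtgactggttgcTGAggc
In all 3 genes the codon was followed by ggc, a glycine codon. It was codon 47 of 201 in *Gpx1*, codon 129 of 253 in *Gpx4* and codon 526 of 527, the last but one before the stop, in *Txnrd2*.

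The members spanned a wide range of abundance in the heart. *Gpx4* was the most abundant, with a mean of 243 scaled TPM over the 4 hearts (195 to 296), followed by *Sod1* with 182 (149 to 196) and *Prdx5* with 127 (98.2 to 143). *Gpx4* was above *Sod1* in all 4 hearts, although their ranges touched. *Sod2* followed with 43.8 scaled TPM (30.3 to 55.3), *Txn2* with 31.6 (28.9 to 33.3), *Gpx1* with 30.2 (25.3 to 37.3) and *Nnt* with 28.6 (21.7 to 35.9). Neighbours among these 4 overlapped in range, and *Gpx1* was above *Nnt* in 2 hearts only. *Prdx3*, at 14.2 scaled TPM (9.76 to 17.4), lay below *Nnt* without overlap. *Cat*, at 8.80 (6.17 to 11.6), and *Txnrd2*, at 8.18 (7.89 to 8.50), were the lowest and changed places between hearts. *Gpx4* and *Sod1* together held 55.5% to 62.2% of the summed scaled TPM of the 10 genes.

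**Figure D1:**
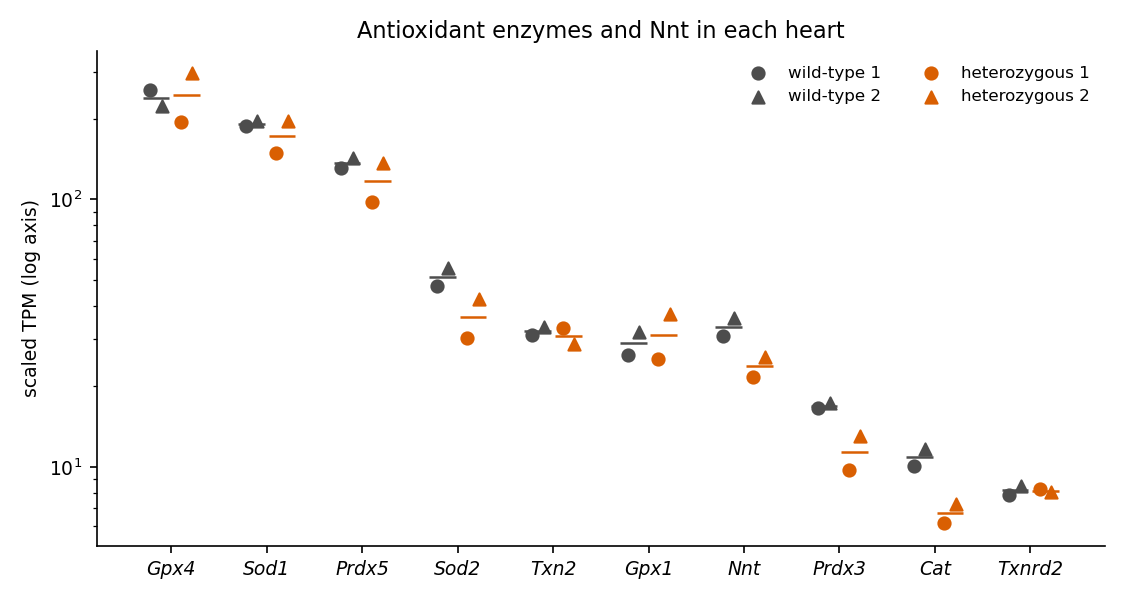
Scaled TPM of the 10 genes on a log axis, 1 point per heart, with grey for wild-type and orange for heterozygous hearts, circles for replicate 1, triangles for replicate 2 and a bar at each genotype mean. Both orange points lie below both grey points for *Sod2*, *Nnt*, *Prdx3* and *Cat*, and the genotypes overlap for the other 6 genes.

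Hearts of the 2 genotypes did not overlap for 4 of the members. *Cat*, *Prdx3*, *Sod2* and *Nnt* were lower in both heterozygous hearts than in both wild-type hearts, at 61.9%, 67.2%, 70.8% and 71.1% of the wild-type mean. None of the 10 members passed the test across all genes, an adjusted p under 0.05 with a fold change over 1.5 in limma. *Prdx5* and *Sod1* had lower means with overlapping hearts, and *Gpx1*, *Gpx4*, *Txn2* and *Txnrd2* had heterozygous means between 96.0% and 108% of the wild-type mean. The median log2 fold change of the members was -0.20, against -0.0047 over the 10036 tested genes. That test called 2 of the 10036 genes, 0.0199% (*Gm8186* and a gene model of *Zc3h11a*, both lower, named here after their values were seen).

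At an unadjusted p under 0.05 in limma, 3 of the 10 members were lower and 0 were higher, where 5.71% of all tested genes were lower and 6.49% were higher. The genotypes were separate, with heterozygous hearts lower, for 4 of 10 members and for 23.3% of tested genes, and with heterozygous hearts higher for 0 of 10 members and 23.7% of tested genes. With 2 mice per genotype, an exact permutation test of a single gene cannot give a two-sided p below 0.333. On the deposited TPM the median log2 fold change of the tested genes was -0.35. On that scale 9 of the 10 members were separate lower, with *Gpx1* the exception, as were 67.8% of tested genes. The sources do not say whether the mice were littermates, and the p-values measure only the spread between these 4 hearts. Heterozygous replicate 1 was the lowest of the 4 hearts for 8 of the 10 members, and it also had the highest mitochondrial share of TPM, 68.6%, whose part in these differences was not tested. Without that heart the members' median was -0.086, and without heterozygous replicate 2 it was -0.42. Lower at an unadjusted p under 0.05 were 2 members and 6.41% of tested genes in the first of those fits, and 6 members and 12.3% in the second. Without wild-type replicate 1 this held for 1 member and 2.51% of tested genes, and without wild-type replicate 2 for 0 members and 2.15%.

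**Figure D2:**
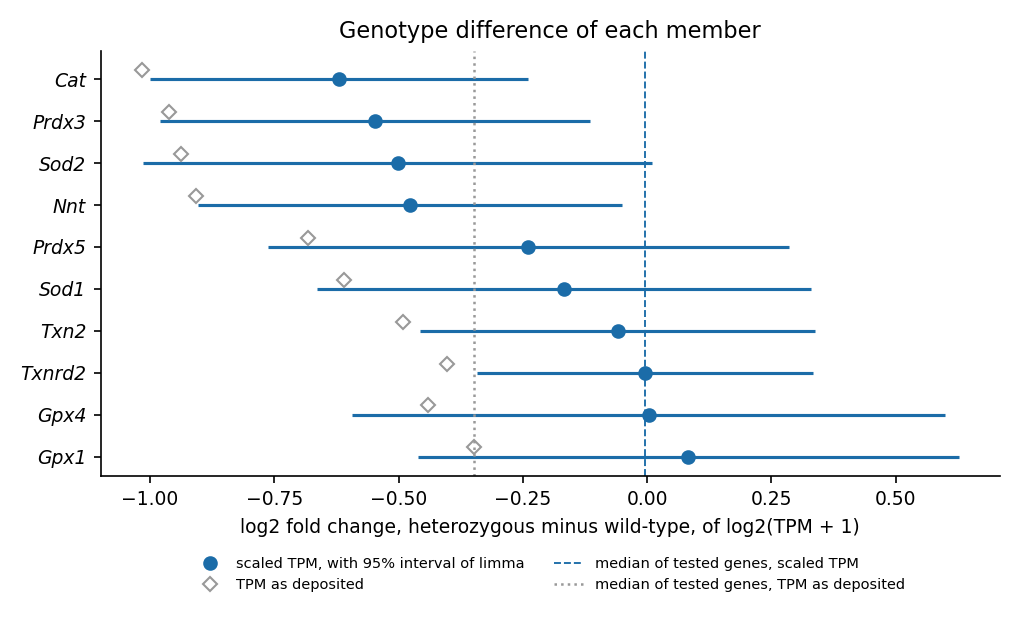
Log2 fold change of each member, heterozygous minus wild-type, with filled points for scaled TPM, lines for the 95% interval of limma and open diamonds for TPM as deposited. The dashed and dotted lines mark the medians of the tested genes on the 2 scales, -0.0047 and -0.35, and the intervals of *Cat*, *Prdx3* and *Nnt* lie below 0 on the scaled values.

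The superoxide dismutases differed in how far the genotypes lay apart. *Sod2* encodes the manganese enzyme of the mitochondrial matrix (chr17:13006846-13040063 of mm10, plus strand, 5 exons in the longest coding transcript, as exons are counted for every member). It measured 47.4 and 55.3 scaled TPM in wild-type and 30.3 and 42.4 in heterozygous hearts. Both heterozygous hearts were below both wild-type hearts, and the closest pair, wild-type replicate 1 and heterozygous replicate 2, was 0.16 apart on the log2 scale. The means were 51.3 ± 5.60 and 36.3 ± 8.50 (SD, n = 2 each). This gave a log2 fold change of -0.50 (standard error 0.21, 95% interval -1.01 to 0.01, adjusted p = 0.412 in limma).

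*Sod1*, the copper and zinc enzyme of the cytosol and the space between the mitochondrial membranes (chr16:90220754-90226329, plus strand, 5 exons), stood at 188 and 196 scaled TPM in wild-type and 149 and 196 in heterozygous hearts. Heterozygous replicate 1 was the low heart, and heterozygous replicate 2 matched the wild-type hearts. The log2 fold change was -0.17 (standard error 0.21, 95% interval -0.66 to 0.33, adjusted p = 0.753 in limma). A processed pseudogene, *Gm8566*, is 97.8% identical to *Sod1* and was listed at 0.58 to 2.0 TPM, so reads of the pair may have been split. Their sum had a log2 fold change of -0.16.

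*Cat* encodes catalase, the peroxisomal enzyme that breaks down hydrogen peroxide without a partner (chr2:103453849-103485160, minus strand, 13 exons). In the main fit, with 1 added to scaled TPM, it had the lowest log2 fold change of the 10 members. With 5 added, *Sod2* was lower, at -0.46 against -0.44 for *Cat*. *Cat* measured 10.1 and 11.6 scaled TPM in wild-type and 6.17 and 7.30 in heterozygous hearts. The genotypes did not overlap, and the hearts of each lay closer to each other than to the other genotype, with a gap of 0.42 on the log2 scale. The means were 10.9 ± 1.08 and 6.73 ± 0.799 (SD, n = 2 each). Its log2 fold change was -0.62 (standard error 0.16, 95% interval -1.0 to -0.24, adjusted p = 0.331 in limma, unadjusted p = 0.0066). Of the log2 fold changes of all tested genes, 1.86% were lower than it.

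The glutathione peroxidases showed means close between genotypes with wide spread. *Gpx1*, which reduces hydrogen peroxide in the cytosol and mitochondria (chr9:108338903-108340343, plus strand, 2 exons), stood at 26.3 and 31.8 scaled TPM in wild-type and 25.3 and 37.3 in heterozygous hearts. The heterozygous hearts were the lowest and the highest of the 4. The log2 fold change was 0.083 (standard error 0.23, 95% interval -0.46 to 0.63, adjusted p = 0.895 in limma). It was -0.35 with TPM as deposited, the same as the median of all genes on that scale.

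*Gpx4*, which reduces lipid peroxides in membranes and guards against ferroptosis (chr10:80047166-80056439, plus strand, 7 exons), stood at 257 and 224 scaled TPM in wild-type and 195 and 296 in heterozygous hearts. Here too the heterozygous hearts enclosed the wild-type hearts. The log2 fold change was 0.0031 (standard error 0.25, 95% interval -0.59 to 0.60, adjusted p = 0.996 in limma), and -0.44 with TPM as deposited. The interval is the widest of the members and leaves room for a difference of 1.5-fold either way. *Gpx4-ps2*, a transcribed pseudogene 99.7% identical to *Gpx4*, held 23.0 and 25.8 TPM in wild-type and 16.4 and 21.8 in heterozygous libraries. With the copy added to *Gpx4*, the log2 fold change was 0.0096, and how the reads were divided is not known.

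The mitochondrial peroxiredoxins both had lower heterozygous means, and only *Prdx3* separated the genotypes. *Prdx3*, whose product clears most hydrogen peroxide of the matrix and is recharged by thioredoxin 2 (chr19:60864051-60874556, minus strand, 7 exons), measured 16.6 and 17.4 scaled TPM in wild-type and 9.76 and 13.0 in heterozygous hearts. The wild-type hearts were close to each other, and both heterozygous hearts lay below them. The means were 17.0 ± 0.585 and 11.4 ± 2.32 (SD, n = 2 each). Its log2 fold change was -0.55 (standard error 0.18, 95% interval -0.98 to -0.12, adjusted p = 0.352 in limma, unadjusted p = 0.0204).

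*Prdx5*, found in mitochondria, peroxisomes and the cytosol (chr19:6906697-6910106, minus strand, 5 exons), stood at 131 and 143 scaled TPM in wild-type and 98.2 and 137 in heterozygous hearts. Heterozygous replicate 1 was low and replicate 2 lay between the wild-type hearts. This gave a log2 fold change of -0.24 (standard error 0.22, 95% interval -0.76 to 0.28, adjusted p = 0.664 in limma). *Trmt112*, on the opposite strand, shares 360 exon bases with *Prdx5* and was listed at 6.14 to 12.5 TPM, and the sources do not say whether strand was used in quantification.

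The pair of genes whose products recharge PRDX3 had genotype means close to each other. *Txn2*, mitochondrial thioredoxin (chr15:77915047-77929006, minus strand, 4 exons of which 3 are coding), stood at 31.2 and 33.3 scaled TPM in wild-type and 32.9 and 28.9 in heterozygous hearts. The hearts were interleaved, and the log2 fold change was -0.059 (standard error 0.17, 95% interval -0.46 to 0.34, adjusted p = 0.899 in limma). *Txnrd2*, the reductase that passes electrons from NADPH to thioredoxin 2 (chr16:18426384-18479073, plus strand, 18 exons of which 17 are coding), stood at 7.89 and 8.50 scaled TPM in wild-type and 8.29 and 8.04 in heterozygous hearts. Both heterozygous hearts lay between the wild-type hearts. The log2 fold change was -0.0039 (standard error 0.14, 95% interval -0.34 to 0.33, adjusted p = 0.992 in limma).

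*Nnt* lies on chromosome 13 (chr13:119335448-119408997 of mm10, minus strand). The mm10 genome comes from C57BL/6J, a strain known for a deletion of internal *Nnt* exons, whereas the mice here are C57BL/6N, which carries the intact gene. The annotated model has 17 exons, 16 of them coding, and 2505 coding bases. Reads from exons that the reference lacks have no place in that model, and gene values do not show single exons, so the allele of each mouse could not be read. The second *Nnt* model (ENSMUSG00000116207.1) is identical in sequence over its whole length and was listed at 0 in all 4 libraries.

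On the first model (ENSMUSG00000025453.18), *Nnt* measured 31.0 and 35.9 scaled TPM in wild-type and 21.7 and 25.9 in heterozygous hearts. Both heterozygous hearts lay below both wild-type hearts. The means were 33.4 ± 3.51 and 23.8 ± 2.95 (SD, n = 2 each). This gave a log2 fold change of -0.48 (standard error 0.18, 95% interval -0.90 to -0.05, adjusted p = 0.378 in limma, unadjusted p = 0.0335).

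A ratio of 2 genes within 1 library does not depend on how that library is scaled, and 6 such ratios of TPM were compared with an exact permutation test over the hearts. The *Cat* to *Gpx1* ratio, the peroxisomal against the glutathione route, was 0.384 and 0.365 in wild-type and 0.244 and 0.196 in heterozygous hearts. It separated the genotypes by -0.78 on the log2 scale. The *Prdx3* to *Prdx5* ratio was 0.126 and 0.122 in wild-type and 0.0994 and 0.0954 in heterozygous hearts, a log2 difference of -0.35. The pooled SD within genotypes was 0.039, the smallest of the 6 ratios and taken from 2 hearts per genotype. The *Sod2* to *Sod1* ratio, matrix against cytosol, was 0.252 and 0.282 in wild-type and 0.203 and 0.216 in heterozygous hearts, a log2 difference of -0.35. In all 3 ratios both heterozygous hearts were lower. The exact permutation test (two-sided) gave p = 0.333, the smallest that 2 against 2 can give, and p = 0.667 after Benjamini-Hochberg adjustment over the 6. In each of the 3, the first gene was already separate lower on its own and the second overlapped. These ratios are therefore not independent of the values of the single genes. How often ratios of other tested genes separate the genotypes was not computed.

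The other 3 ratios overlapped between genotypes. The *Nnt* to *Idh2* ratio compares the transhydrogenase with isocitrate dehydrogenase 2, the other main matrix source of NADPH, and was 0.131 and 0.127 in wild-type and 0.127 and 0.121 in heterozygous hearts. *Idh2* was itself lower in both heterozygous hearts, at 237 and 284 scaled TPM in wild-type and 170 and 214 in heterozygous hearts (log2 fold change -0.44, adjusted p = 0.443 in limma). The log2 difference of the *Nnt* to *Idh2* ratio was -0.054 (exact permutation test, two-sided, p = 0.667). The *Txnrd2* to *Txn2* and *Gpx1* to *Gpx4* ratios differed by 0.057 and 0.083 (exact permutation test, two-sided, p = 1 for both).

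**Figure D3:**
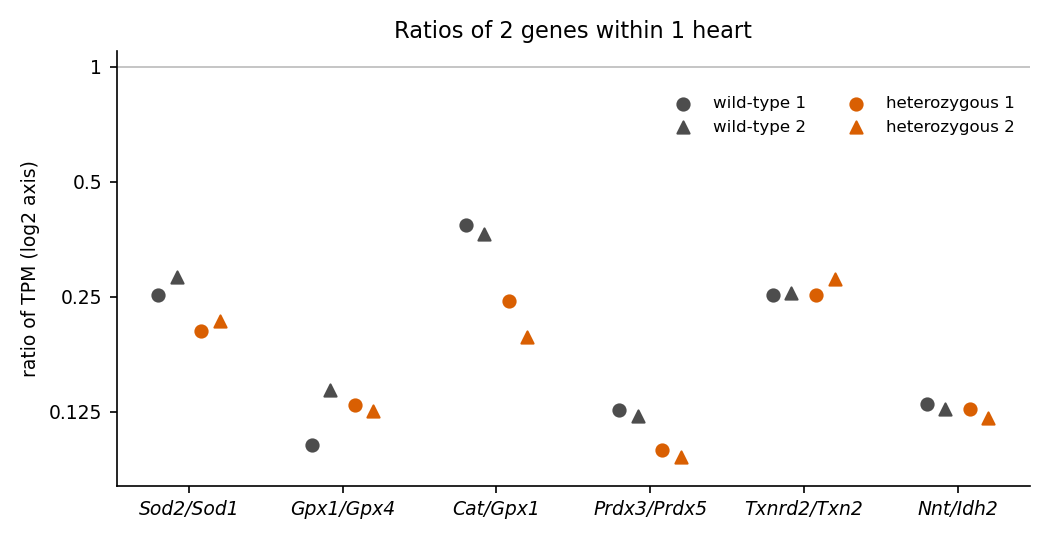
Ratios of TPM of 2 genes within each heart on a log2 axis, with grey for wild-type and orange for heterozygous hearts, circles for replicate 1 and triangles for replicate 2. Both orange points lie below both grey points for *Sod2* to *Sod1*, *Cat* to *Gpx1* and *Prdx3* to *Prdx5*, and the genotypes overlap for the other 3 ratios.

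The wider redox network was described with 8 lists, 101 genes in all, of which 88 were tested. None of the 88 was called by limma, and the median log2 fold change was -0.10. At an unadjusted p under 0.05, 15 of the 88 were lower and 2 higher, beside 5.71% and 6.49% of all tested genes, the shares that stand beside each list's count at that p below. The median was lowest for the glutathione transferases, at -0.24, and highest for the NRF2 pathway and other stress defence, at -0.019. Of the 12 glutathione transferases, 3 were lower at an unadjusted p under 0.05, among them *Mgst3*, a membrane enzyme, at 67.6% of the wild-type mean (log2 fold change -0.55, adjusted p = 0.379 in limma). *Gstm7*, also among the 3, stood at 65.8% (log2 fold change -0.47, adjusted p = 0.360 in limma). Both had separate genotypes, with heterozygous hearts lower.

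Among 11 thioredoxins and peroxiredoxins outside mitochondria, the median was -0.12, and 3 were lower at an unadjusted p under 0.05. *Prdx1*, the cytosolic counterpart of *Prdx3*, stood at 23.2 and 30.7 scaled TPM in wild-type and 12.9 and 18.7 in heterozygous hearts (log2 fold change -0.75, adjusted p = 0.343 in limma). *Prdx4*, of the endoplasmic reticulum, stood at 10.6 and 12.1 in wild-type and 7.30 and 8.14 in heterozygous hearts (log2 fold change -0.50, adjusted p = 0.341 in limma). Both were separate between genotypes, like *Prdx3* and unlike *Prdx5*. The third, *Txnip*, an inhibitor of thioredoxin named after its values were seen, stood at 114 and 40.3 scaled TPM in wild-type and 26.7 and 24.3 in heterozygous hearts, so that wild-type replicate 1 set much of its log2 fold change of -1.38.

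The 10 tested NADPH sources had a median of -0.15, with 5 separate lower and 3 separate higher, beside 23.3% and 23.7% of all tested genes. *Mthfd1*, of folate metabolism, and *Me3*, a mitochondrial malic enzyme, had log2 fold changes of -0.44 and -0.45 (adjusted p = 0.368 and 0.412 in limma). Glutathione synthesis and recycling had 13 tested genes with a median of -0.16 and none at an unadjusted p under 0.05. Its lowest unadjusted p values belonged to *Gpx7* and *Glrx3*, with log2 fold changes of -0.34 and -0.35 (adjusted p = 0.425 for both in limma). These lists held no gene that was called.

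Selenoprotein synthesis and other selenoproteins had 12 tested genes with a median of -0.040, and 3 were lower at an unadjusted p under 0.05. *Selenop*, the selenium carrier of plasma, and *Pstk*, a kinase that makes the precursor of selenocysteine on its tRNA, had log2 fold changes of -0.66 and -0.45 (adjusted p = 0.352 and 0.372 in limma). Of the 12 genes, 7 had a negative log2 fold change, a share near the 5092 of 10036 tested genes. The 3 selenoprotein members had log2 fold changes between -0.0039 and 0.083. The NRF2 list had 13 tested genes, 3 of them lower at an unadjusted p under 0.05, among them *Park7* at -0.47 and *Msrb2* at -0.38 (adjusted p = 0.382 and 0.393 in limma). *Park7* encodes a redox-sensitive protein of stress defence and *Msrb2* a mitochondrial methionine sulfoxide reductase. The 5 tested sources of superoxide and hydrogen peroxide had a median of -0.031, with *Maob* at -0.20 and *Romo1* at -0.28 (adjusted p = 0.582 and 0.592 in limma).

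The peroxisome list, set beside *Cat* because catalase is imported into peroxisomes, had 12 tested genes, 2 lower and 2 higher at an unadjusted p under 0.05, and a median of -0.14. *Pex10* and *Pex13*, of the import machinery, were higher, at 163% and 151% of the wild-type mean (log2 fold change 0.49 and 0.39, adjusted p = 0.341 and 0.372 in limma). Both stood under 3 scaled TPM in every heart. The list held genes on both sides of 0, and *Cat* lay below all 12.

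The tricarboxylic acid cycle served as a comparison list of mitochondrial matrix enzymes, a process the study itself named from these samples, so its direction is not independent evidence. All 17 genes had a negative log2 fold change, as did 5092 of the 10036 tested genes, and none was called by limma. Of the 17, 12 were lower at an unadjusted p under 0.05, beside 5.71% of all tested genes, and 13 were separate lower, beside 23.3%. The median was -0.53. *Sdhc*, a subunit of succinate dehydrogenase, and *Ogdh*, of the oxoglutarate dehydrogenase complex, had log2 fold changes of -0.91 and -0.65 (adjusted p = 0.319 and 0.335 in limma). *Cat*, *Prdx3*, *Sod2* and *Nnt*, at -0.62 to -0.48, lay in the range of this list (-0.91 to -0.032), as did *Prdx5*, *Sod1* and *Txn2*, at -0.24 to -0.059. *Txnrd2*, *Gpx4* and *Gpx1* lay above it.

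**Figure D4:**
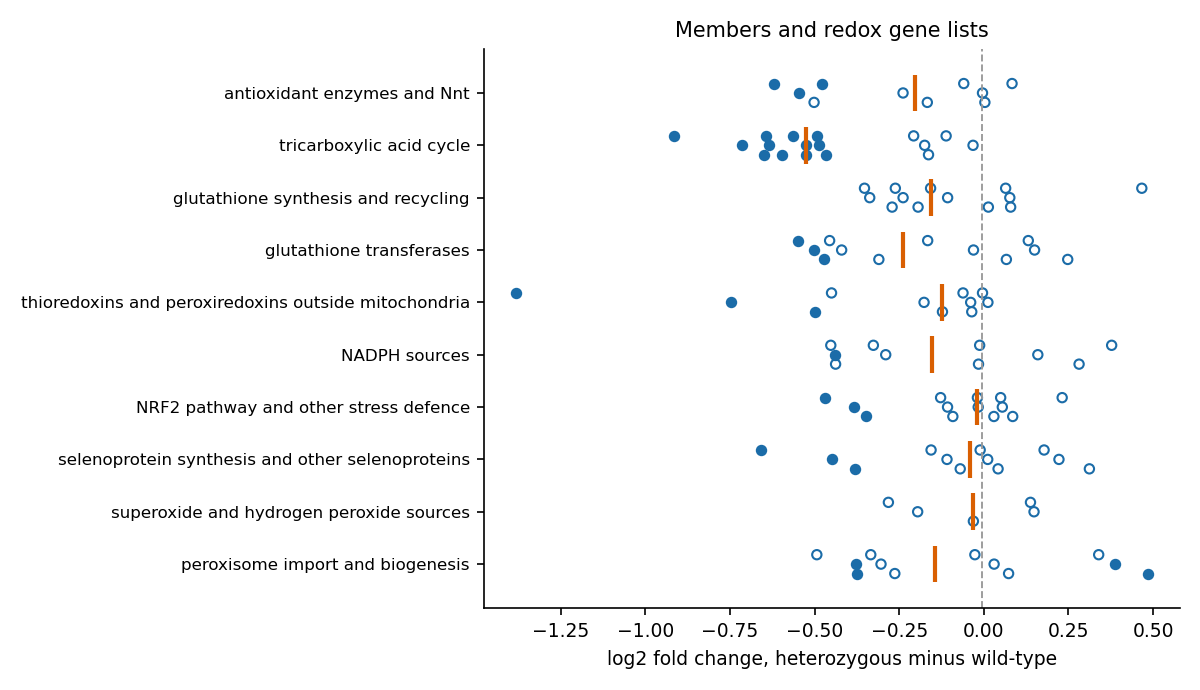
Log2 fold change of every tested gene of the members, the tricarboxylic acid cycle and the 8 redox lists, 1 point per gene, filled where the unadjusted p of limma is under 0.05, with an orange bar at the median of each list. The dashed line is the median of all tested genes, and the median of the members, -0.20, lies between that line and the median of the tricarboxylic acid cycle, -0.53.

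In bulk hearts, fewer cells of a type and less RNA per cell cannot be told apart. The summed scaled TPM of the 6 cardiomyocyte markers ranged from 20922 to 22313 in wild-type and 18445 to 21848 in heterozygous hearts, with 2 of 6 markers separate lower. For these and the other marker counts, the shares over all tested genes are 23.3% separate lower and 23.7% separate higher. The 4 atrial markers summed to 806 to 2354 in wild-type and 1918 to 3281 in heterozygous hearts, and the 5 erythroid markers to 930 to 987 and 965 to 2120. All 4 atrial markers (log2 fold change 0.72 to 0.95) and all 5 erythroid markers (0.26 to 0.63, 1 separate higher) had positive values, with no unadjusted p under 0.05. The 5 endothelial markers summed to 250 to 251 in wild-type and 286 to 329 in heterozygous hearts, with 2 of 5 separate lower and 2 separate higher. Their median log2 fold change was -0.015, and 3 of the 5 were negative. At an unadjusted p under 0.05 in limma, 1 was lower and 0 were higher, beside 5.71% and 6.49% of all tested genes. The 5 fibroblast markers summed to 51.0 to 68.9 and 41.4 to 48.2, with 2 of 5 separate lower. The 5 markers of smooth muscle and pericytes summed to 65.9 to 73.1 in wild-type and 49.8 to 66.1 in heterozygous hearts, with 2 of 5 separate lower and all 5 negative in log2 fold change. The endothelial and fibroblast sums did not overlap between genotypes, the sums of the other 6 lists did, and no defining marker was listed at 0 in all hearts. The part of these markers in the lower values of *Cat*, *Prdx3*, *Sod2* and *Nnt* was not tested.

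Promoter sequence was available for 9 of the 10 members from RefSeq (GRCm38.p6), and 250 bases before each start were searched on both strands. The letters searched were TGACNNNGC (the core of the antioxidant response element bound by NRF2), TCAAGGTCA (an element of oestrogen-related receptors), GCGCATGCG (NRF1), CCAAT and GGGCGG. Of 32851 mouse promoters of that length, 10.2%, 0.387%, 1.45%, 33.8% and 32.7% held a match, in that order. TGACNNNGC was found before *Sod1* only, and neither TCAAGGTCA nor GCGCATGCG before any of the 9. The promoters of *Cat* and *Prdx3*, the members with the lowest log2 fold changes in the main fit, are given below. They are from chr2:103485154-103485403 and chr19:60874539-60874788, both on the minus strand and read 5′ to 3′. CCAAT and GGGCGG or their reverse complements are in capitals.
Cat: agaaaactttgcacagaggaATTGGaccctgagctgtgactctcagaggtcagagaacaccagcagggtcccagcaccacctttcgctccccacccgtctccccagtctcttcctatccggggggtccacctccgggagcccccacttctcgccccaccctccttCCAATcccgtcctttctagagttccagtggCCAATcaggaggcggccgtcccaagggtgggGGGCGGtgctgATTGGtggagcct
Prdx3: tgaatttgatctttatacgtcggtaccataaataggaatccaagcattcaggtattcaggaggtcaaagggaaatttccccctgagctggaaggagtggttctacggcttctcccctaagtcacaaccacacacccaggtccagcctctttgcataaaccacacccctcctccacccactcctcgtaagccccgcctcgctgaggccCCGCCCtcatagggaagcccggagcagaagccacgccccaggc
*Cat* held 4 matches to CCAAT and 1 to GGGCGG, and *Prdx3* held 0 and 1. A GC content of 62.0% and 55.6% stood beside these matches. *Sod2*, the third member with separate genotypes and a promoter in the table, held 1 match to CCAAT and 4 to GGGCGG. A match describes letters in the window and not a bound site, and no match says only that these letters are not there.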

How the data were processed

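Heart RNA of 2 wild-type and 2 *Ctcf* heterozygous mice, 1 library each, was grouped by the genotype in the sample labels. The authors deposited TPM per gene, after trimming with Trim Galore (0.6.10), alignment to mm10 with STAR (2.7.4a) and quantification with RSEM (1.2.28), as the methods state. The annotation release is not given in the sources used here. Read counts were not used here, so no count model was fitted.

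TPM were scaled per library with median-of-ratios factors, taken from the 9968 tested genes with no 0 value. The test used log2(scaled TPM + 1), a pseudocount that understates changes of low genes. Tested were the 10036 genes whose TPM averaged 1 or more, in limma (3.58.1, R 4.3.3; eBayes with trend, two-sided, Benjamini-Hochberg adjustment over all of them). A call needed an adjusted p below 0.05 together with a change of more than 1.5-fold. The prior had 4.64 degrees of freedom. Ratios used an exact permutation test. Copies of members were sought with BLAST+ (2.17.0) at 95% identity over 80% of the copy, and gene positions come from GENCODE's mm10 annotation. Scripts were tested on simulated data.

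The members and gene lists were chosen with earlier results of these data known. Named genes are all members, *Idh2*, and from each list the called genes or otherwise the 2 with the smallest unadjusted p. Alternatives were other pseudocounts, filters, scalings and thresholds, eBayes without trend or robust, a replicate block and each library left out.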

Additional observations from a re-analysis of the deposited data

How the results depend on the processing

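No member was called under any of the 15 alternatives, and *Cat*, *Prdx3*, *Sod2* and *Nnt* had a negative log2 fold change in all of them. *Prdx5* was also negative but came to -0.00017 without heterozygous replicate 1. The lowest adjusted p of a member over these limma fits was 0.0634, for *Cat* after removal of the genes of the mitochondrial genome (mt- genes). On the deposited TPM the members' median was -0.65 against -0.35 for all tested genes, and after mt- removal -0.54 against -0.31, so the members' difference from all genes was -0.30 and -0.23. Members at an unadjusted p under 0.05 then numbered 5 and 6, beside 3338 and 2860 tested genes lower. Over the fits leaving out 1 library, the members' median ranged from -0.42 to -0.086. Genes called lower and higher numbered 11 and 2 on the deposited TPM, 12 and 2 after mt- removal, 7 and 3 with the replicate block, 4 and 0 with a pseudocount of 0.1, 3 and 2 with robust eBayes, and 0 without the filter on low values. Without 1 library, 4 to 13 genes were called lower and 0 to 11 higher. Under the same 2 alternatives *Gpx1* was at -0.35 and -0.25, and *Gpx4* at -0.44 and -0.33. Scaling factors from all genes above 0, chosen after seeing the data, put *Gpx4* at -0.0046, and quantile normalization put *Txnrd2* at 0.00039. With 1 library left out, the log2 fold change ranged from -0.73 to -0.52 for *Cat*, -0.74 to -0.36 for *Prdx3*, -0.74 to -0.27 for *Sod2*, -0.60 to -0.35 for *Nnt*, -0.48 to -0.00017 for *Prdx5*, -0.37 to 0.032 for *Sod1*, -0.19 to 0.36 for *Gpx1*, -0.30 to 0.31 for *Gpx4*, -0.15 to 0.029 for *Txn2* and -0.054 to 0.046 for *Txnrd2*. The ratio of *Prdx3* to *Prdx5* was -0.28 with 1 added to the TPM. The cause was not tested in any of these cases. Same-numbered libraries share only a replicate number. Their deviations correlated at 0.101 with 2 pairs, and the replicate block gave 4 members at an unadjusted p under 0.05, with a smallest adjusted p of 0.218, beside 715 tested genes lower and 723 higher (573 and 651 without the block). TPM give no depth, so low genes cannot be weighed by counting error.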
